A study of Mus musculus with 14 samples.

Results

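The spleens of AcB61 and AcB55 mice were compared gene by gene on all 14 of the 14 two-colour cDNA arrays of the series, 8 for AcB61 and 6 for AcB55. Both are inbred mouse lines of the recombinant congenic kind, in which pieces of the C57BL/6 genome were fixed on an A/J background. Each array set spleen RNA of 1 of these strains against spleen RNA of A/J, the background strain, so both strains were read through a shared A/J channel and A/J had no array of its own. Every value below is the log ratio of strain over A/J, or the difference of 2 such ratios, AcB61 minus AcB55. A value of 0 therefore means a level like that of A/J, and a positive difference means a higher level in AcB61 than in AcB55. The labels do not give the sex, age, infection state or number of animals, nor do they say whether arrays came from separate mice, so p-values measure the spread between these arrays, which may be technical in part. They do not give the dye of each channel either. The direction used here, strain over A/J, is the likely one given the order of the channels, and the base of the logarithm, not stated, was taken as 2. Arrays 3 and 4 of AcB55 carry a letter b in their titles that is not explained.

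The strains come from work on resistance to blood-stage malaria, in which the parasite lives inside red cells. Both strains are reported to carry an inactive allele of Pklr, the pyruvate kinase of red cells. Loss of that enzyme shortens the life of red cells, and in mice the spleen answers such a loss by enlarging and by making red cells itself, besides clearing old cells and housing B and T cells. A spleen in that state holds many dividing red cell precursors, which make haem and globin and dismantle their ribosomes and mitochondria as they mature. The comparison of the strains shows what differs between 2 spleens that share that background. No tested feature carried the name Pklr, Vnn1 or Vnn3 alone, so these genes were not analysed here. Spleen RNA is a mixture of cell types, and fewer cells of a type and less RNA per cell cannot be told apart in any result below. Because each value is a ratio to A/J, the arrays give no level at which markers of the spleen could be checked for presence.

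Between 14197 and 14588 features had a value on each array, and the median log ratio of an array lay between -0.02 and 0.01. Arrays within AcB61 did not resemble each other evenly. Arrays 2, 6 and 8 correlated with one another at r of 0.79 to 0.83 across features and arrays 3, 5 and 7 at 0.70 to 0.80, while a member of the first set and a member of the second correlated at -0.09 to 0.15. Arrays 1 and 4 correlated with the other AcB61 arrays at 0.37 to 0.64. The first principal component of the deviations from the strain means held 43.6% of that variance and separated the same sets. In AcB55, arrays 1 and 2 correlated with the AcB61 arrays at 0.21 to 0.52 and arrays 3 to 6 at -0.005 to 0.27. Among the AcB55 arrays themselves this split was not clear, since array 1 correlated at 0.68 with array 2 and at 0.67 with array 4. The labels name no batch that matches either split, and the protocols mention a dye swap without saying which arrays it concerns. Each title carries a number of unexplained meaning, and all AcB61 arrays have lower numbers than AcB55 arrays 2 to 6. AcB55 array 1 falls within the AcB61 range, and AcB55 arrays 1 and 2 have the lowest numbers of their strain. The order of these numbers thus largely runs with strain, does not separate the AcB61 sets, and was not tested. The split's part in the results was not tested beyond the values given with and without these arrays.

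Of 13045 features tested in limma, 1601 differed between AcB61 and AcB55 at a Benjamini-Hochberg adjusted p under 0.05 (12.3%), 690 higher in AcB61 (5.29%) and 911 lower (6.98%). Among the 6286 features that carry a single gene symbol, 655 genes were called (10.4%), 427 higher in AcB61 (6.79%) and 228 lower (3.63%). The split ran the other way among the 6759 features with no or several symbols, where 263 were higher and 683 lower. The median difference was 0.05 over genes, -0.02 over the features with no single symbol and 0.01 over all features. The deposited ratios were already normalized and each array has a median near 0, so a shift of the arrays as a whole could not be seen. Most called differences were small. Only 90 of the called genes reached 1.5-fold, 62 higher and 28 lower, and in 164 genes (2.61%) the ranges of the strains did not overlap, as in 348 of all features (2.67%). The count rests in part on single AcB55 arrays. It was 426 genes without AcB55 array 4, 395 without array 5, 352 without array 6 and 310 without both arrays marked b. With the within-strain component as a covariate it was 1516 genes and included all 655. That component was taken from the same deviations from the strain means that set the error. A higher count was therefore largely built in and lends the calls no support. Against A/J in the same fit, 1681 genes were called for AcB55 (26.7%) and 1389 for AcB61 (22.1%). These 2 sets share the A/J channel and are not compared with each other.

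**Figure D1:**
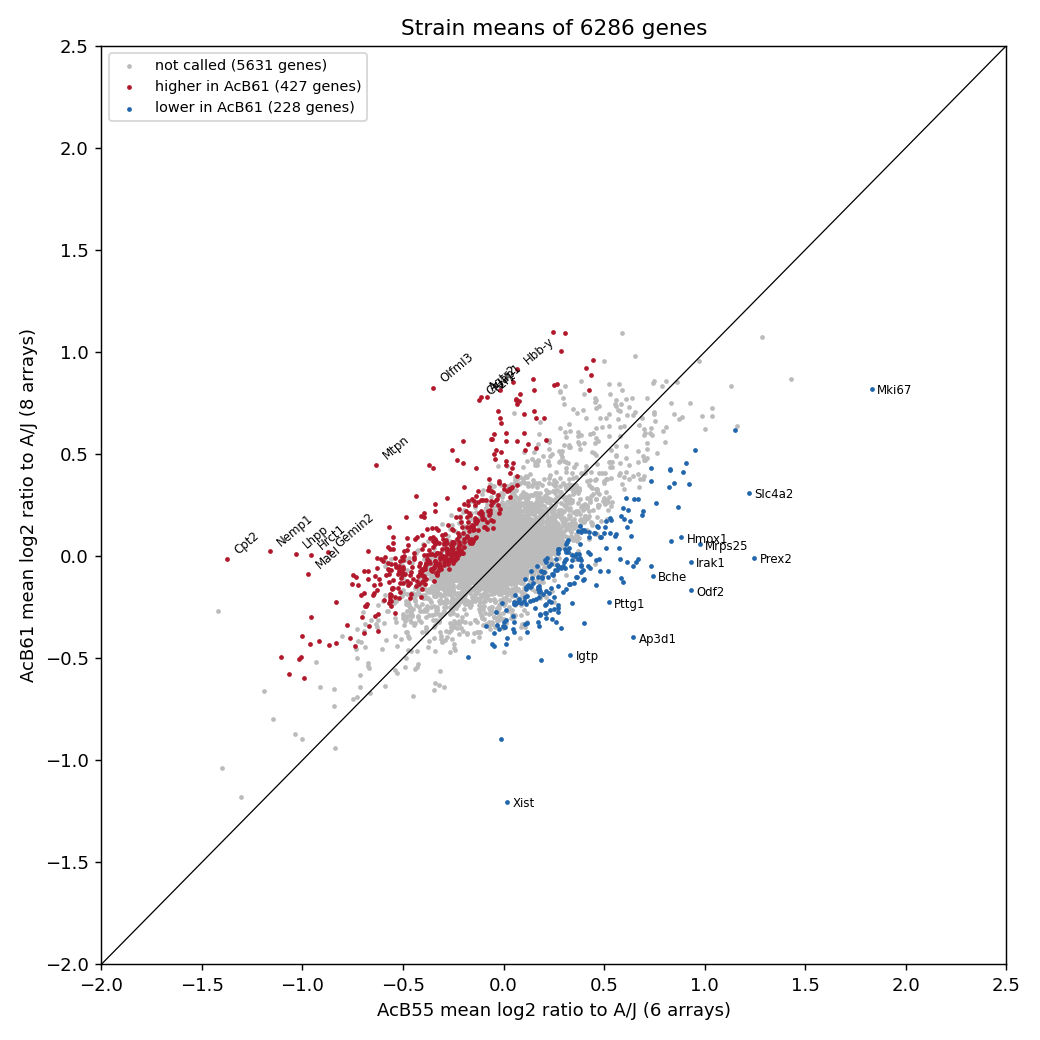
Mean log2 ratio to A/J of each of 6286 genes in AcB55 (horizontal axis, 6 arrays) and in AcB61 (vertical axis, 8 arrays), with the line of equal means. The 427 genes higher in AcB61 are red, the 228 lower are blue, and names mark the 12 largest differences in each direction among genes whose ranges did not overlap; Cpt2 lies far to the left at an AcB61 mean near 0, Mki67 far to the right, and Xist lowest in AcB61.

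The 12 largest differences in each direction were taken only among called genes whose ranges did not overlap between strains. Gaps between the ranges and small permutation p-values in these genes therefore follow from that choice. The genes most in excess in AcB61 fell into those that AcB55 held well below A/J and those that AcB61 held above it. The first kind was led by Cpt2, the enzyme of the inner mitochondrial membrane that returns long-chain fatty acids to coenzyme A for oxidation. Its log ratio ran from -1.74 to -1.17 over the 6 AcB55 arrays with a median of -1.35, and from -0.10 to 0.13 over the 8 AcB61 arrays with a median of -0.06. Every AcB61 array stood at the A/J level and every AcB55 array at less than that by more than 1 log2 unit. The difference was 1.36 (SE 0.08), or 2.57-fold, with a limma adjusted p of 5.23e-08 and an exact permutation p of 0.000333, the smallest that 3003 assignments of 14 arrays allow. Nemp1, a protein of the inner nuclear membrane, ran from -1.47 to -0.76 in AcB55 (median -1.19) and from -0.23 to 0.32 in AcB61 (median 0.00), a difference of 1.18 (SE 0.11, adjusted p 4.86e-06). Lhpp, a phosphatase that acts on phosphohistidine, ran from -1.25 to -0.73 (median -1.09) against -0.11 to 0.11 (median 0.02) and differed by 1.04 (SE 0.08, adjusted p 2.07e-06). Gemin2, a part of the SMN complex that assembles spliceosomal particles, ran from -1.04 to -0.66 (median -0.88) against -0.21 to 0.25 (median -0.02) and differed by 0.89 (SE 0.08, adjusted p 5.08e-06). In these genes AcB61 arrays straddled 0 and no AcB55 array came near them. Hrct1 had means of -0.96 ± 0.26 (SD, n = 6) in AcB55 and 0.00 ± 0.13 (SD, n = 8) in AcB61, and Mael, a germ line protein of the piRNA pathway, -0.97 ± 0.24 (SD, n = 6) and -0.09 ± 0.21 (SD, n = 8). Their differences were 0.96 and 0.88, and their ranges did not overlap either.

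In the second kind AcB61 stood above A/J. Olfml3, a secreted protein of the olfactomedin family, lay between -0.61 and -0.16 in AcB55 (median -0.33) and between 0.28 and 1.31 on the 7 AcB61 arrays with a value (median 0.94). All AcB55 arrays were thus below A/J and all AcB61 arrays above it, with a difference of 1.18 (SE 0.14, adjusted p 0.000143). Mtpn, or myotrophin, which binds the actin capping protein, showed the same opposition, from -1.02 to -0.22 in AcB55 (median -0.71) and from 0.14 to 0.67 in AcB61 (median 0.47), a difference of 1.08 (SE 0.12, adjusted p 4.25e-05). Agtr2, the type 2 receptor of angiotensin II, had a mean of -0.11 ± 0.10 (SD, n = 6) in AcB55 and of 0.78 ± 0.32 (SD, n = 8) in AcB61. Cluap1, a protein of intraflagellar transport, had -0.12 ± 0.14 (SD, n = 6) and 0.76 ± 0.34 (SD, n = 7). Fzr1, the Cdh1 activator of the anaphase promoting complex, had -0.08 ± 0.15 (SD, n = 5) and 0.78 ± 0.33 (SD, n = 8). These 3 genes differed by 0.89, 0.89 and 0.87 with adjusted p of 0.000453, 0.000906 and 0.00164. AcB55 was near A/J in each, and the AcB61 arrays were widely spread, from 0.28 to 1.26 for Agtr2 and from 0.43 to 1.30 for Fzr1. Hbb-y, the embryonic beta-like globin, closed the list, with AcB55 arrays from -0.19 to 0.40 (median 0.07) and AcB61 arrays from 0.51 to 1.30 (median 0.85). Its difference was 0.85 (SE 0.12, adjusted p 0.000453), and its separate probes gave 0.79 to 0.94.

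Among the genes lower in AcB61, several of the largest differences came from a high and variable level in AcB55 beside an AcB61 level near A/J. Prex2, an exchange factor for Rac, had values of 0.59, 0.82, 1.88, 1.92 and 1.02 on AcB55 arrays 1 to 5, with no value on array 6, and from -0.38 to 0.45 on the AcB61 arrays (median 0.05). Odf2, a protein of sperm tail fibres and of centriole appendages, ran from 0.45 to 1.75 in AcB55 (median 0.78) and from -0.38 to -0.04 in AcB61 (median -0.11). Irak1, a kinase that relays signals of Toll-like and interleukin-1 receptors, ran from 0.24 to 1.63 (median 0.95) against -0.34 to 0.16 (median 0.04). In each of these, AcB55 arrays 1 and 2 were the lowest of that strain and arrays 3 and 4, marked b, the highest. The differences were -1.26 (SE 0.21, adjusted p 0.00183), -1.10 (SE 0.16, adjusted p 0.000606) and -0.96 (SE 0.17, adjusted p 0.00231). Mrps25, a protein of the small subunit of the mitochondrial ribosome, averaged 0.98 ± 0.44 (SD, n = 6) in AcB55 and 0.06 ± 0.27 (SD, n = 8) in AcB61. Bche, or butyrylcholinesterase, averaged 0.74 ± 0.46 (SD, n = 6) and -0.10 ± 0.16 (SD, n = 8). Ap3d1, the delta subunit of the AP-3 adaptor that sorts cargo to lysosome-related organelles, averaged 0.65 ± 0.78 (SD, n = 6) and -0.40 ± 0.19 (SD, n = 8). Its ranges only just failed to meet, since the lowest AcB55 array stood at -0.21 and the highest AcB61 array at -0.22.

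Mki67, the proliferation antigen Ki-67, was above A/J in both strains but far more so in AcB55, with a median of 1.85 over the 6 AcB55 arrays, the lowest at 1.50 and the highest at 2.20, against 0.49 to 1.05 (median 0.84) in AcB61, a difference of -1.01 (SE 0.11, adjusted p 4.33e-05). Slc4a2, an anion exchanger of many tissues related to band 3 of red cells, ran from 0.75 to 1.71 in AcB55 (median 1.32) and from -0.09 to 0.56 in AcB61 (median 0.34) and differed by -0.91 (SE 0.14, adjusted p 0.000939). Hmox1, the inducible haem oxygenase that breaks down haem, stood at 0.69, 0.56, 1.27, 0.90 and 0.99 on AcB55 arrays 1, 3, 4, 5 and 6, with no value on array 2, and ran from -0.37 to 0.55 in AcB61 (median 0.13). It had a difference of -0.79 (SE 0.13, adjusted p 0.00209). By the choice of genes, no AcB61 array reached the lowest AcB55 array in any of these 3 genes. Pttg1, or securin, the inhibitor of separase that is destroyed at anaphase, ran from 0.29 to 0.90 in AcB55 and from -0.39 to -0.01 in AcB61, and Igtp, a GTPase induced by interferon gamma, from 0.09 to 0.52 and from -0.92 to -0.19. Both were above A/J on all AcB55 arrays and below it on all AcB61 arrays, by differences of -0.75 (SE 0.09, adjusted p 0.000108) and -0.81 (SE 0.12, adjusted p 0.000604). Xist, the RNA that coats the silenced X chromosome of female cells, lay within -0.08 and 0.08 in AcB55 (median 0.03) and between -1.71 and -0.73 in AcB61 (median -1.21). Its difference was -1.22 (SE 0.14, adjusted p 7.16e-05). The other tested genes of the sex-linked list, all on the X chromosome, did not pass the test, with differences of -0.29 for Eif2s3x (adjusted p 0.0666), -0.26 for Kdm5c (0.119), -0.21 for Kdm6a (0.263) and 0.00 for Ddx3x (0.987), and no Y-linked gene of the list was tested. Without AcB61 array 3 the list had 2 lower genes. The labels do not give the sex of the strain or of the A/J animals, so sex and strain cannot be told apart for Xist. All 24 genes named so far as the largest differences kept their call under each of the 27 alternatives that gave them a value.

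**Figure D2:**
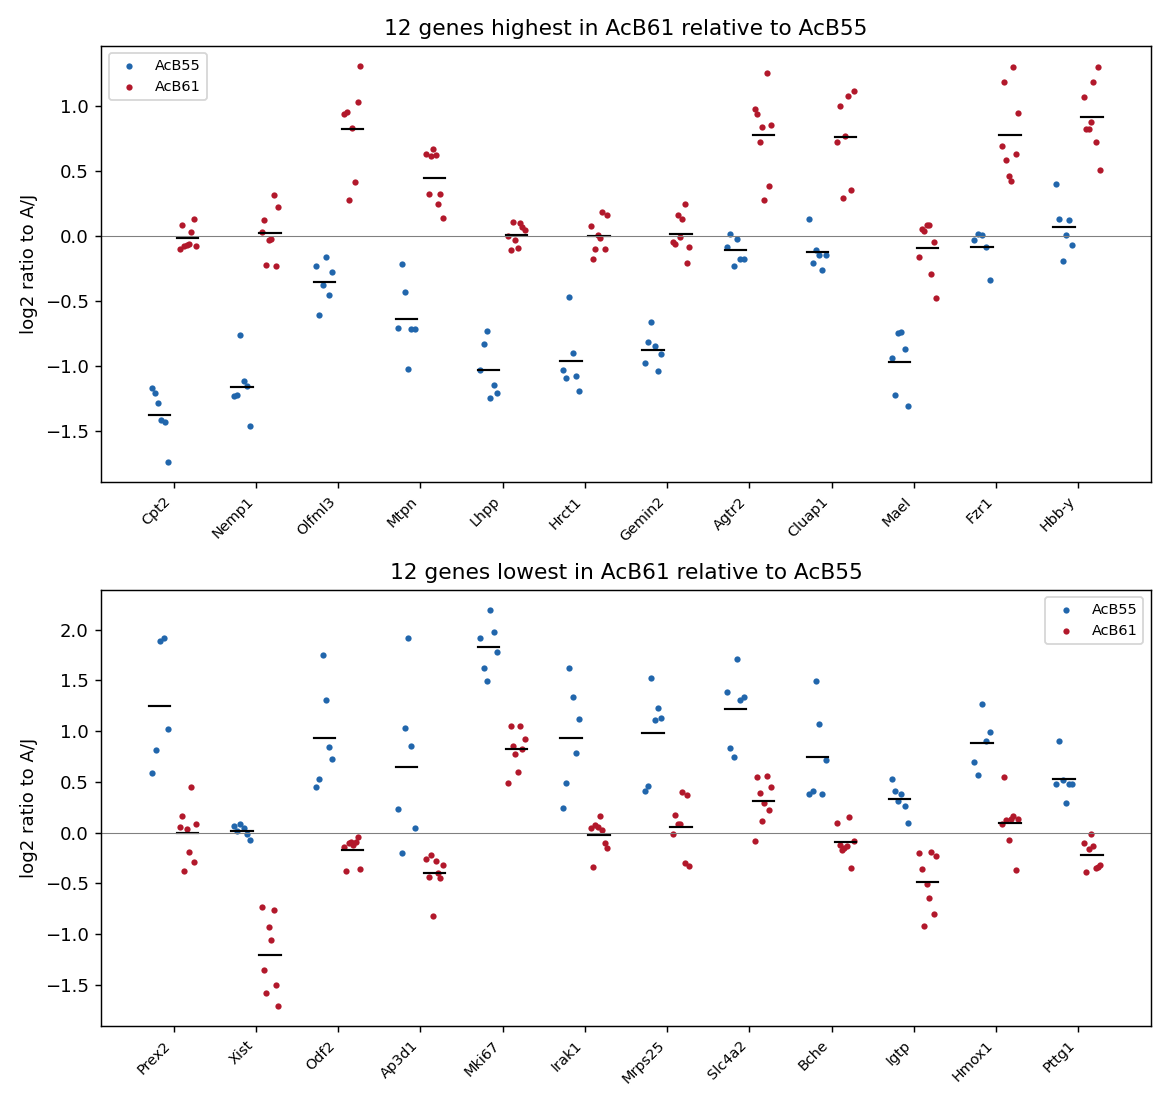
Log2 ratio to A/J on every array for the 12 largest differences in each direction (upper panel higher in AcB61, lower panel lower in AcB61); blue points are AcB55 arrays, red points AcB61 arrays, and black bars strain means. The genes were chosen among those whose ranges did not overlap. The AcB61 bar lies close to 0 for Cpt2, Nemp1, Lhpp, Hrct1 and Gemin2 whereas the AcB55 bar lies close to 0 for Xist, Agtr2, Cluap1, Fzr1 and Hbb-y.

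Among gene groups, the proteins of the cytosolic ribosome stood out by count. Of 60 tested, 27 were higher in AcB61 and 0 lower, where 6.79% of all genes were higher, and 57 of the 60 had a difference above 0. The median difference of the list was 0.29, against 0.05 over all genes. Per array, the median log ratio of the list was between -0.40 and -0.30 on AcB55 arrays 1, 3, 4, 5 and 6 and -0.09 on array 2, and between -0.11 and 0.07 on the AcB61 arrays, so AcB61 sat at the A/J level and AcB55 below it, apart from array 2. The largest differences were those of Rpl38, Rpl13a and Rps14. Rpl38, a small protein of the large subunit, ran from -0.98 to -0.15 in AcB55 (median -0.85) and from -0.33 to 0.31 in AcB61 (median -0.16), a difference of 0.65 (SE 0.13, adjusted p 0.00457). Its high AcB55 value was that of array 2, and it alone made the ranges overlap. Rpl13a, also of the large subunit, ran from -0.98 to -0.28 (median -0.48) against -0.14 to 0.40 (median 0.07), a difference of 0.64 (SE 0.12, adjusted p 0.00245), and Rps14, of the small subunit, from -0.91 to -0.36 (median -0.50) against -0.28 to 0.32 (median 0.08), a difference of 0.62 (SE 0.11, adjusted p 0.00213). These 3 calls held under each alternative. The count of the list did not: it was 13 without AcB55 array 3, 4 or 5, 11 without array 6, 14 without AcB61 array 1 and 6 without both AcB55 arrays marked b, all higher in AcB61. With the within-strain component as a covariate, a setting that raises counts by its construction, it was 50 higher and 1 lower.

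The messages of ribosomal proteins begin with a run of pyrimidines, the 5′ terminal oligopyrimidine tract, through which their translation is adjusted as a group. The starts of 4 of the genes higher in AcB61 are shown because the list moved together. Each line gives 60 bases before and 20 after the annotated start in RefSeq (GRCm38.p6), 5′ to 3′ on the strand of the gene, and capitals mark the letters CTTTC, searched on that strand only. Rpl27 is shown as a member with no match in this window.

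Rpl38, chr11:114668520-114668599, plus strand: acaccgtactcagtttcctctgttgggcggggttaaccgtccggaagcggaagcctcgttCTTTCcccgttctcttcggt
Rpl13a, chr7:45128726-45128805, minus strand: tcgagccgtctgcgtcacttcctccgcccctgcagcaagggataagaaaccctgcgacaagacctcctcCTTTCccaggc
Rpl35, chr2:39005112-39005191, minus strand: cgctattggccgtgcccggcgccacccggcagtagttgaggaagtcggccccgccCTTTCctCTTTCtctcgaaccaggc
Rpl27, chr11:101442185-101442264, plus strand: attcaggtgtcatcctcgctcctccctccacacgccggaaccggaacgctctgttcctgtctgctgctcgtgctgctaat

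In the 35 bases from 15 before to 20 after the start, CTTTC was found in 14 of the 47 tested ribosomal protein genes that have an entry in the RefSeq promoter table (29.8%) and in 1489 of all 27025 genes of the table (5.51%). It was found in 8 of 18 called and in 6 of 29 not called members, and the difference between these was not tested. Rpl35 and Rpl27, shown above, differed by 0.52 (SE 0.14, adjusted p 0.0218) and 0.49 (SE 0.10, adjusted p 0.00439). The matches describe the letters only.

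The subunits of the mitochondrial respiratory chain and ATP synthase, which make most of the ATP of a respiring cell, had the same median difference, 0.29. Of 53 tested, 10 were higher in AcB61 (18.9%, beside 6.79% of all genes) and 0 lower, and 49 had a difference above 0. Ndufs6, an accessory subunit of complex I, led with AcB55 arrays from -0.32 to 0.29 (median -0.01) and AcB61 arrays from 0.53 to 1.35 (median 0.72). The ranges did not overlap, and the difference of 0.83 (SE 0.12, adjusted p 0.000701) held under each alternative. Cox6b1, of cytochrome c oxidase, differed by 0.56 (SE 0.14, adjusted p 0.0161) and Atpif1, the inhibitor of the ATP synthase running in reverse, by 0.46 (SE 0.11, adjusted p 0.0131), and in both the ranges overlapped. The list medians per array also overlapped, from -0.37 to 0.11 in AcB55 and from -0.03 to 0.39 in AcB61. In AcB61 they were 0.31, 0.39 and 0.34 on arrays 2, 6 and 8 and 0.02, -0.03 and -0.02 on arrays 3, 5 and 7, which are the sets that stand apart over all features. The count was 20 without AcB55 array 2, 5 without array 4, 6 without array 5, 4 without array 6, 6 without AcB61 array 1 and 2 without both arrays marked b.

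Other parts of protein synthesis differed in their counts. Of 44 mitochondrial ribosomal proteins 2 were called (4.55%, beside 10.4% of all genes), 0 higher and 2 lower. The lower genes were Mrps25 and Mrpl27 (-0.33, SE 0.08, adjusted p 0.0125), although 36 of the list had a difference above 0 and the median was 0.13. Without AcB55 array 2 the count was 2 higher and 2 lower. Of 51 translation factors and tRNA synthetases 9 were higher (17.6%, beside 6.79% of all genes) and 0 lower, with a median of 0.06. Those named by size were Farsa, the alpha subunit of phenylalanyl-tRNA synthetase, at 0.66 (adjusted p 0.0331) and Eif3i and Eif3k, subunits of the initiation factor that holds the small ribosomal subunit, at 0.45 (adjusted p 0.0263) and 0.42 (adjusted p 0.00737). The count fell to 4 without AcB55 array 3 and to 3 without array 5 or 6. The call of Farsa was lost without AcB55 array 2, 3, 4, 5 or 6 or AcB61 array 1, 4 or 5 (adjusted p 0.0512 to 0.0757), and that of Eif3i without AcB55 array 3, 5 or 6 (0.0525 to 0.0730). Of 32 proteasome subunits 1 was called (3.1%, beside 10.4% of all genes), Psmb4 (0.30, adjusted p 0.0343), and 27 differences were above 0 with a median of 0.21. Psmb4 was not called without AcB55 array 3, 4, 5 or 6 or AcB61 array 1 or 6 (adjusted p 0.0517 to 0.0980), and the proteasome count was 4 without AcB55 array 2 and 2 without AcB61 array 3, 7 or 8.

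**Figure D3:**
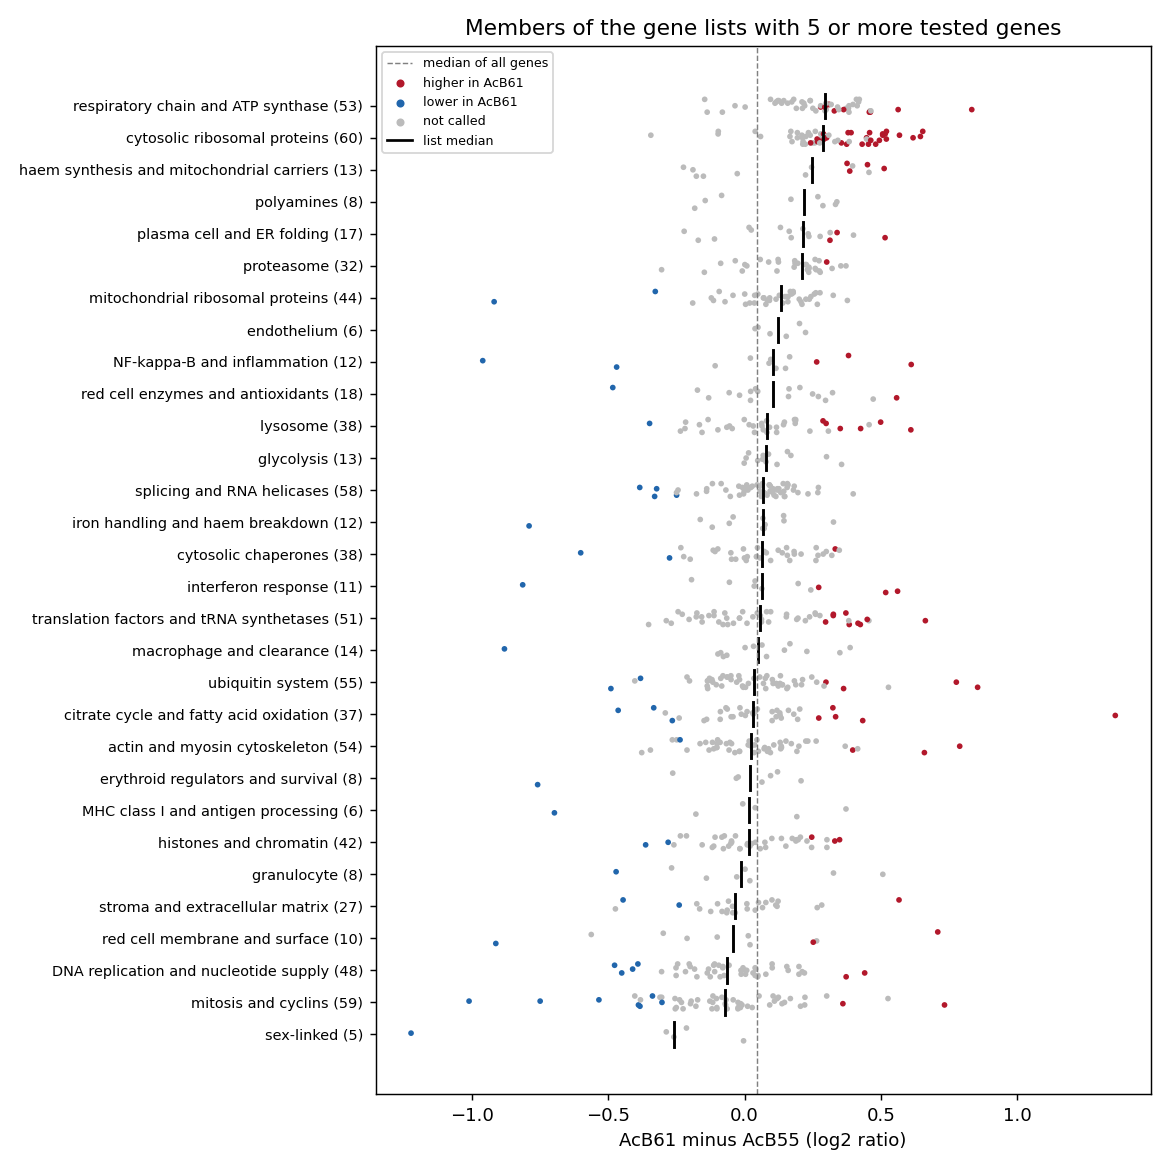
AcB61 minus AcB55 (log2 ratio, horizontal axis) for each tested member of the gene lists with 5 or more tested genes, the number of which stands in brackets; red points are higher in AcB61, blue lower, grey not called, and black bars are list medians. The bars of the respiratory chain and the cytosolic ribosome lie furthest right at 0.29, where the dashed line of all genes is at 0.05, and the mitosis and DNA replication lists lie to its left at -0.07.

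Genes of red cell precursors did not differ in a common direction. In haem synthesis and its mitochondrial carriers, 4 of 13 were higher in AcB61 (30.8%, beside 6.79% of all genes) and 0 lower, with a median difference of 0.25. Alas2, the red cell form of the first enzyme of haem synthesis, ran from 0.08 to 0.74 in AcB55 (median 0.40) and from 0.58 to 1.14 in AcB61 (median 1.03). Both strains were above A/J on every array, and the ranges overlapped through AcB55 arrays 1, 2 and 5. The difference of Alas2 was 0.51 (SE 0.13, adjusted p 0.0193), lost without AcB55 array 4 or 6 (adjusted p 0.0510 to 0.0580). Glrx5, which helps to build iron-sulphur clusters, differed by 0.45 (adjusted p 0.0419), Tmem14c, a carrier of haem precursors, by 0.39 (adjusted p 0.0481) and Alas1, the form of other tissues, by 0.38 (adjusted p 0.0165). Glrx5 lost its call without AcB55 array 3, 4, 5 or 6 or AcB61 array 3, 5, 6 or 7 (adjusted p 0.0617 to 0.118), and Tmem14c without those 4 AcB55 arrays or AcB61 array 1, 2, 4, 6 or 8 (0.0550 to 0.132). The enzymes between these steps had values on both sides of 0, from -0.22 for Uros to 0.46 for Alad, and did not pass. Per array, the list median was 0.73 and 0.76 on AcB55 arrays 1 and 2 and 0.16 to 0.44 on arrays 3 to 6, against 0.56 to 0.73 in AcB61. The count was 2 without AcB55 array 3 or 5 or AcB61 array 6, 1 without AcB55 array 4 or 6, and 0 without both arrays marked b.

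Of the globins and their partners, Hbb-y was higher in AcB61, as given above, and the others did not pass. Hba-a1, the adult alpha globin, had means of -0.01 ± 0.15 (SD, n = 6) and 0.04 ± 0.16 (SD, n = 8), a difference of 0.05 with a 95% interval of -0.13 to 0.23. Hba-x, the embryonic alpha-like globin, had a difference of 0.32 (adjusted p 0.264), and without AcB55 arrays 1 and 2 it was 0.59 (adjusted p 0.0194). Eif2ak1, the kinase that halts translation when haem is short, had a difference of 0.32 (adjusted p 0.0916), or 0.44 (adjusted p 0.0189) without AcB61 arrays 2, 6 and 8. Of 10 proteins of the red cell membrane and surface 2 were higher and 1 lower, 30% called beside 10.4% of all genes. Slc4a1, band 3 itself, stood above A/J in both strains, at 1.28 ± 0.31 (SD, n = 5) and 1.07 ± 0.23 (SD, n = 8), and its difference of -0.21 did not pass (95% interval -0.49 to 0.07). Slc4a2, its relative, was lower in AcB61 and Cd24a, the heat-stable antigen of immature blood cells, higher by 0.71 (SE 0.14, adjusted p 0.00402), but the separate Cd24a probes ranged from 0.06 to 1.36. Ermap, an adhesion protein of the red cell lineage, differed by 0.25 (adjusted p 0.0381). Ermap was not called without any 1 of AcB55 arrays 1, 3, 4, 5 and 6 or AcB61 arrays 1, 2, 4 and 6 (adjusted p 0.0518 to 0.0769).

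Of 18 red cell enzymes and antioxidant proteins 1 was higher and 1 lower, 11.1% called beside 10.4% of all genes. Txn1, or thioredoxin, differed by 0.56 (adjusted p 0.0452) and Cat, or catalase, by -0.48 (adjusted p 0.0379). Txn1 stood at 0.88, 1.06 and 0.83 on AcB61 arrays 2, 6 and 8 and at 0.64 and 0.16 on arrays 1 and 4. On arrays 3 and 7 it stood at -0.04 and 0.12, with no value on array 5. Without arrays 2, 6 and 8 the difference of Txn1 was 0.26 (limma adjusted p 0.229). Cat ran from 0.60 to 0.88 in AcB55 (median 0.87) and from -0.03 to 0.87 in AcB61 (median 0.10), with AcB61 arrays 2, 6 and 8, the set that stands apart over all features, at 0.87, 0.67 and 0.86 and the others at -0.03 to 0.10. Without arrays 3, 5 and 7 the difference of Cat was -0.30 (adjusted p 0.135), and without arrays 2, 6 and 8 it was -0.76. Txn1 lost its call without AcB55 array 3, 4, 5 or 6 or AcB61 array 1, 2, 6 or 8 (adjusted p 0.0735 to 0.119), and Cat without AcB55 array 1, 2, 3, 4 or 6 or AcB61 array 1, 3, 4, 5 or 7 (0.0556 to 0.0819). The count of the list was 0 without AcB55 array 3, 4 or 6 or AcB61 array 1, 2 without AcB55 array 2, and 1 without any other array. Of 8 regulators and survival factors of the lineage 0 were higher and 1 lower, 12.5% called beside 10.4% of all genes. Bcl2l1, which encodes Bcl-xL, a protein that keeps late precursors alive, ran from 0.42 to 1.18 in AcB55 (median 0.86) and from -0.56 to 0.88 in AcB61 (median 0.01), a difference of -0.76 (SE 0.20, adjusted p 0.0225, or 0.0525 without AcB55 array 4). AcB61 arrays 2, 6 and 8 stood at -0.41, -0.56 and -0.40, and arrays 3, 5 and 7 at 0.40, 0.65 and 0.88. Without arrays 2, 6 and 8 the difference of Bcl2l1 was -0.44 (adjusted p 0.0634). Its call was also lost without AcB55 arrays 1 and 2 (adjusted p 0.0734) or both arrays marked b (0.0571). Tfrc, the transferrin receptor, which takes up iron and is abundant on dividing precursors, was 0.67 ± 0.20 (SD, n = 6) in AcB55 and 0.64 ± 0.20 (SD, n = 8) in AcB61. Its difference of -0.03 had a 95% interval of -0.24 to 0.18, and its sign turned when some arrays were left out. Its probes gave -0.47 to 0.41, and the probe at -0.47 was called when tested on its own (adjusted p 0.0251). Of 12 genes of iron handling and haem breakdown only Hmox1 was called (8.33%, beside 10.4% of all genes). Fth1 and Ftl1, the ferritin chains, had differences of 0.14 each that did not pass. Of 13 glycolytic genes 0 were called in limma, 2 had an unadjusted p under 0.05, both higher in AcB61, and 1 was called without AcB61 array 6 or 8. The largest of their differences was that of Pkm, the pyruvate kinase of most tissues outside red cells and liver, at 0.36 (adjusted p 0.0743).

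Cell division genes lay above A/J in both strains by their list median. Mki67 and Pttg1, both lower in AcB61, had the largest differences between the strains, and Cks1b, higher in AcB61, came close to Pttg1 in size. In the list of mitosis and cyclins, 7 of 59 were lower and 2 higher, beside 3.63% lower and 6.79% higher over all genes, and the median difference was -0.07. Besides Mki67 and Pttg1 the lower genes included Cenpf, a kinetochore protein, at -0.53 (SE 0.10, adjusted p 0.00277) and Cdk2, a kinase of entry into S phase, at -0.38 (SE 0.07, adjusted p 0.00265), both without overlap. Cks1b, the small partner of cyclin-dependent kinases, ran the other way, from -0.65 to -0.20 in AcB55 (median -0.47) and from -0.11 to 0.67 in AcB61 (median 0.21), a difference of 0.73 (SE 0.12, adjusted p 0.00164). Cenpa, the histone of centromeres, was also higher, by 0.36 (SE 0.08, adjusted p 0.00649). The list as a whole overlapped between strains, with array medians of 0.29 to 0.64 in AcB55 and 0.20 to 0.50 in AcB61. Of 48 genes of DNA replication and nucleotide supply 4 were lower and 2 higher, 12.5% called beside 10.4% of all genes. Pold3, a subunit of DNA polymerase delta, ran from 0.34 to 0.61 in AcB55 (median 0.46) and from -0.28 to 0.12 in AcB61 (median -0.02), a difference of -0.48 (SE 0.07, adjusted p 0.000939). Mcm10, which loads the replication fork, differed by -0.45 (SE 0.10, adjusted p 0.00649), and Paics, an enzyme of purine synthesis, by 0.44 (SE 0.12, adjusted p 0.0278). The calls of Pold3 and Mcm10 held under each alternative, and that of Paics was lost without AcB55 array 3, 4 or 5 or AcB61 array 1 (adjusted p 0.0511 to 0.0709).

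**Figure D4:**
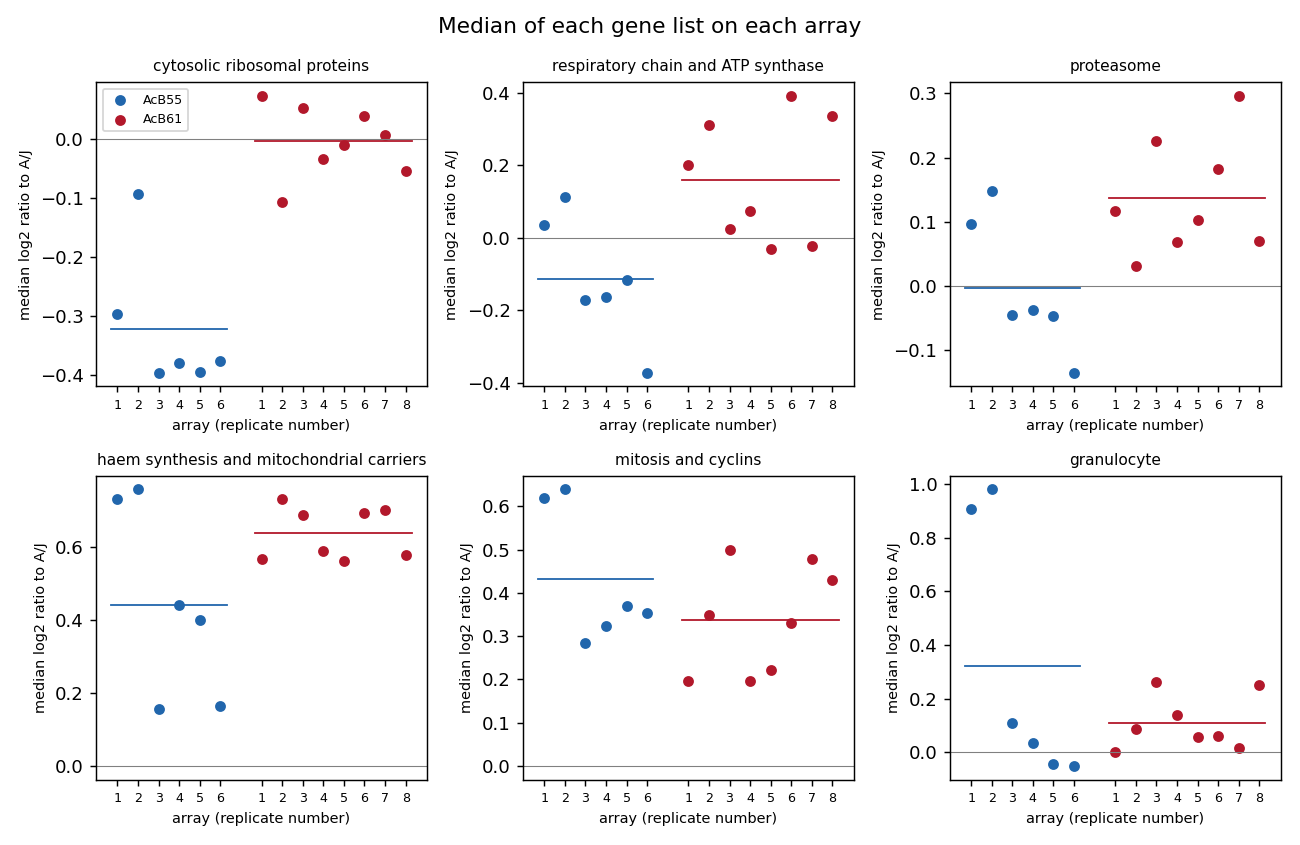
Median log2 ratio to A/J (vertical axis) over the tested members of 6 gene lists on each array (horizontal axis, AcB55 in blue, AcB61 in red), with a line at the mean of each strain. The ribosomal list separates the strains apart from AcB55 array 2, AcB55 arrays 1 and 2 lie above arrays 3 to 6 in the granulocyte, haem and mitosis lists, and AcB61 arrays 2, 6 and 8 lie above arrays 3, 5 and 7 in the respiratory chain list.

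By their list median, granulocyte genes set 2 arrays apart rather than the strains, but single members went different ways. The median of the 8 tested members was 0.91 and 0.98 on AcB55 arrays 1 and 2, -0.05 to 0.11 on AcB55 arrays 3 to 6 and 0.00 to 0.26 in AcB61. S100a9, a calcium-binding protein abundant in neutrophils, stood at 1.48 and 1.94 on AcB55 arrays 1 and 2, between -0.10 and 0.26 on the others, and between 0.73 and 1.72 in AcB61 (median 0.98). Its difference of 0.51 did not pass over all arrays (adjusted p 0.265), while it was 0.78 without array 2 (adjusted p 0.0380) and 1.07 without both arrays 1 and 2 (adjusted p 0.000925). Lcn2, or lipocalin 2, of neutrophil granules, gave 0.33 over all arrays (adjusted p 0.487) and 0.84 without both arrays 1 and 2 (adjusted p 0.00987). It stood at 1.47 and 1.89 on AcB55 arrays 1 and 2, at -0.01 to 0.29 on arrays 3 to 6, and at 0.52 to 1.57 in AcB61. Cd177, a surface protein of neutrophils, was lower in AcB61, with a difference of -0.47 (SE 0.13, adjusted p 0.0262, or 0.0538 without AcB55 array 2), with its highest values of 1.01 and 0.75 on the same AcB55 arrays. It was -0.24 (adjusted p 0.0917) without both AcB55 arrays 1 and 2. Of the 8 granulocyte genes 1 was called, 12.5% beside 10.4% of all genes. That count became 2, both lower, without AcB61 array 4, 5 or 7, 2 higher with 0 lower without both AcB55 arrays 1 and 2, and 0 without AcB61 arrays 2, 6 and 8.

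Of 14 macrophage and clearance genes 0 were higher and 1 lower, 7.14% called beside 10.4% of all genes. Clu, or clusterin, a secreted chaperone, was within -0.20 and 0.12 in AcB55 (median -0.01) and ran from -1.37 to -0.07 in AcB61 (median -0.83). A single AcB61 array, array 5, lay at the AcB55 level, and the difference of -0.88 (SE 0.16, adjusted p 0.00247) held under each alternative. The C1q chains gave -0.09 to 0.39 and did not pass. Blnk, the adaptor of the B cell receptor and the only B cell gene tested, was below A/J in both strains, at -1.07 ± 0.30 (SD, n = 6) and -0.58 ± 0.20 (SD, n = 6), and differed by 0.49 (adjusted p 0.0243), lost without AcB55 array 5 or 6 or AcB61 array 1 (adjusted p 0.0516 to 0.0609). Of 17 plasma cell and endoplasmic reticulum genes 3 were higher (17.6%, beside 6.79% of all genes), Xbp1, the transcription factor of secretory cells (0.52, adjusted p 0.0390), Dnajb9, its chaperone target (0.34, adjusted p 0.0243), and Calr, or calreticulin (0.31, adjusted p 0.0283). These calls were not firm. Xbp1 lost its own without AcB55 array 1, 3, 4, 5 or 6 or AcB61 array 1, 2, 4, 6 or 8 (adjusted p 0.0501 to 0.113), Calr without AcB55 array 3, 4, 5 or 6 or AcB61 array 4 (0.0510 to 0.0787) and Dnajb9 without AcB55 array 4 (0.0725). The count was 5 higher and 1 lower without AcB61 array 3, 5 higher without AcB61 array 5 or 6, 1 without AcB55 array 3, 5 or 6 or AcB61 array 4, and 0 without AcB55 array 4. Satb1, the only T cell gene tested, had a difference of 0.16 (adjusted p 0.189), and Ppbp and Selp, of platelets, of -0.31 (adjusted p 0.418) and -0.22 (adjusted p 0.137), the last at -0.31 (adjusted p 0.0356) without AcB61 arrays 3, 5 and 7.

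Interferon genes moved in both directions. Of 11 tested, 3 were higher and 1 lower, 36.4% called beside 10.4% of all genes, and the median difference was 0.06. Bst2, or tetherin, which holds budding virus at the cell surface, ran from -1.14 to -0.47 in AcB55 (median -0.65) and from -0.62 to 0.05 in AcB61 (median -0.15), a difference of 0.52 (SE 0.11, adjusted p 0.00740). Isg20, an exonuclease, ran from -0.12 to 0.34 (median 0.14) against 0.36 to 1.31 (median 0.55), a difference of 0.56 (SE 0.15, adjusted p 0.0195), and Stat2, a factor that carries the type I interferon signal to genes, differed by 0.27 (SE 0.06, adjusted p 0.00750), both without overlap. Igtp was lower, as given above. Igtp and Bst2 are shown because they moved in opposite directions. Each line gives 140 bases before and 20 after the annotated start in RefSeq (GRCm38.p6), 5′ to 3′ on the strand of the gene. Capitals mark the core of the interferon-stimulated response element, written as GAAA, any 2 letters and GAAA again and searched on both strands. Its 2 matches in Bst2 overlap.

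Igtp, chr11:58199416-58199575, plus strand: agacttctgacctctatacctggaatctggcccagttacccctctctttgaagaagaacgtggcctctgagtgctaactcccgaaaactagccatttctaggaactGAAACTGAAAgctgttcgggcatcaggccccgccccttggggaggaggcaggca
Bst2, chr8:71537453-71537612, minus strand: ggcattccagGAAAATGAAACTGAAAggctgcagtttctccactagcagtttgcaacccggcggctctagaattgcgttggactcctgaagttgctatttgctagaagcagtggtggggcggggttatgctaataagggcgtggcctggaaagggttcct

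In the 300 bases of each promoter entry the motif was found in 7 of the 11 tested interferon genes, 3 of them among the 4 that were called, and in 1079 of all 27025 genes of the table (3.99%). A match describes the letters only. Of 12 genes of NF-kappa-B and inflammation 3 were higher and 2 lower, 41.7% called beside 10.4% of all genes. Besides Irak1 the lower gene was Pycard, the adaptor ASC of the inflammasome, with AcB55 arrays from 0.19 to 0.47 (median 0.28) and AcB61 arrays from -0.38 to 0.05 (median -0.16), a difference of -0.47 (SE 0.08, adjusted p 0.00245). Il18, a cytokine that the inflammasome matures, differed by 0.38 (SE 0.10, adjusted p 0.0215), Il16, a chemoattractant of CD4 cells, by 0.61 (SE 0.15, adjusted p 0.0182, or 0.0594 without AcB55 array 6) and Nfkbiz, a nuclear partner of NF-kappa-B, by 0.26 (SE 0.07, adjusted p 0.0232). Of the class I chains and their processing, 1 of 6 was called (16.7%, beside 10.4% of all genes). H2-K1, a classical class I heavy chain, ran from -0.09 to 0.54 in AcB55 (median 0.14) and from -0.84 to 0.01 in AcB61 (median -0.70), a difference of -0.70 (SE 0.14, adjusted p 0.00478). B2m, its light chain, gave 0.19 and did not pass. Without AcB61 array 6 the count was 1 higher and 1 lower. Of class II, H2-DMa, which loads peptide, differed by -0.33 (SE 0.08, adjusted p 0.0168), and H2-Eb1, the E beta chain, was far below A/J in both strains, at -1.31 ± 0.15 (SD, n = 6) and -1.18 ± 0.36 (SD, n = 8), with a difference of 0.13 (95% interval -0.16 to 0.42). That of H2-Eb1 was 0.37 (adjusted p 0.0141) without AcB61 arrays 2, 6 and 8 and below 0, not called, without arrays 3, 5 and 7 or with quantile normalization.

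In the matrix and stroma list 1 of 27 genes was higher and 2 lower, 11.1% called beside 10.4% of all genes. Col3a1, the chain of type III collagen, was from -0.20 to -0.06 in AcB55 (median -0.15) and from 0.36 to 0.60 in AcB61 (median 0.41). The spread within each strain was small beside the difference of 0.57 (SE 0.06, adjusted p 3.10e-05), the probes gave 0.29 to 0.84, and the call held under each alternative. Timp3, an inhibitor of matrix proteases, and Col4a1, of basement membranes, differed by -0.45 (adjusted p 0.0334) and -0.24 (adjusted p 0.0381). Timp3 lost its call without AcB55 array 2, 3, 4, 5 or 6 or AcB61 array 1, 4 or 7 (adjusted p 0.0502 to 0.0670), Col4a1 without AcB55 array 3, 4, 5 or 6 or AcB61 array 1, 2, 3, 7 or 8 (0.0521 to 0.0961), and the count was 1 without AcB55 array 3, 4, 5 or 6 or AcB61 array 1 or 7. Of 6 endothelial genes 0 were called in limma and 2 had an unadjusted p under 0.05, with differences from 0.04 to 0.22 over the list. Of 54 genes of the actin cytoskeleton 3 were higher and 1 lower, 7.41% called beside 10.4% of all genes. The higher genes were led by Dbn1, or drebrin, at 0.79 (SE 0.16, adjusted p 0.00562) and Tpm2, or beta tropomyosin, at 0.66 (SE 0.15, adjusted p 0.00925). The third, Arpc1b of the Arp2/3 complex, at 0.40 (adjusted p 0.0268), was not called without AcB55 array 3 or 6 or AcB61 array 1 or 2 (adjusted p 0.0501 to 0.0744). Tpm2 stood at -0.15 and -0.16 on AcB61 arrays 5 and 7, within its AcB55 range of -0.38 to 0.01. On the other AcB61 arrays it stood at 0.54 to 0.83. Dbn1 stood at 1.32 to 1.70 on AcB61 arrays 3, 5 and 7 and at 0.72 to 0.76 on arrays 2, 6 and 8. The cytoskeleton count was 5 higher and 3 lower without AcB55 array 2 and 2 higher without AcB55 array 6 or AcB61 array 1. Cpa1, a digestive protease of the pancreas, ran from -3.58 to 2.37 on 5 AcB55 arrays and from -0.89 to 0.48 in AcB61. Its difference of 1.15 did not pass (adjusted p 0.275), and without AcB55 array 1, the array at 2.37, it was 2.10 (adjusted p 0.00166).

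In metabolism, 5 of 37 genes of the citrate cycle and fatty acid oxidation were higher, Cpt2 among them, and 3 lower, 13.5% and 8.11% of the list beside 6.79% and 3.63% of all genes, with a median difference of 0.03. Without both AcB55 arrays marked b the counts were 4 and 1. Hadha, the alpha subunit of the trifunctional protein that acts downstream of Cpt2, ran the other way, from 0.08 to 0.53 in AcB55 (median 0.32) and from -0.51 to 0.12 in AcB61 (median -0.10), a difference of -0.46 (SE 0.10, adjusted p 0.00869). Acadl, the long-chain acyl-CoA dehydrogenase, differed by 0.33 (SE 0.07, adjusted p 0.00601), Suclg2, of succinyl-CoA ligase, by 0.32 (SE 0.06, adjusted p 0.00402), and Dlst, of the oxoglutarate dehydrogenase complex, by -0.33 (SE 0.06, adjusted p 0.00232), each without overlap. Of 38 lysosomal genes 6 were higher (15.8%, beside 6.79% of all genes) and 1 lower (2.63%, beside 3.63%). They were led by Laptm5, a lysosomal membrane protein of blood cells, at 0.61 (SE 0.14, adjusted p 0.00891), and by Atp6v1c1 and Atp6ap1 of the proton pump, at 0.50 (SE 0.11, adjusted p 0.00693) and 0.43 (SE 0.08, adjusted p 0.00402). The lysosomal count was 4 without AcB55 array 4, 5 or 6 or AcB61 array 1, 2, 4 or 6.

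The remaining lists held about as many called genes as the 10.4% of all genes, or fewer. Of 55 genes of the ubiquitin system 4 were higher and 2 lower, led by Usp8, a deubiquitinase of endosomes, at 0.85 (SE 0.20, adjusted p 0.0125), Huwe1, a large ubiquitin ligase, at 0.78 (SE 0.15, adjusted p 0.00426), and Ube2h, a conjugating enzyme, at -0.49 (SE 0.11, adjusted p 0.00952), and the count was 8 higher and 2 lower without AcB61 array 8. Usp8 stood at 1.43 to 1.85 on AcB61 arrays 3, 5 and 7 and at 0.29 to 0.83 on arrays 2, 6 and 8. Huwe1 stood at 0.02 and 0.01 on AcB61 arrays 5 and 7, within its AcB55 range, and at 0.54 to 0.84 on the others. Of 38 cytosolic chaperones 1 was higher and 2 lower. That count was 3 higher and 2 lower without AcB55 array 2 or AcB61 array 6, 2 higher and 3 lower without AcB61 array 3, 5 or 7, and 0 higher and 1 lower without AcB55 array 4. Dnajb4, a co-chaperone of Hsp70, ran from 0.14 to 0.60 in AcB55 (median 0.50) and from -0.44 to 0.15 in AcB61 (median -0.16), a difference of -0.60 (SE 0.11, adjusted p 0.00232). Of 42 histone and chromatin genes 3 were higher and 2 lower. The alternative motor subunits of the SWI/SNF remodelling complex ran in opposite directions, Smarca2 at 0.35 (SE 0.07, adjusted p 0.00460) and Smarca4 at -0.36 (SE 0.07, adjusted p 0.00436), each without overlap between strains. Of 58 splicing genes 0 were higher and 4 lower, led by Prpf4 at -0.38 (SE 0.09, adjusted p 0.0117), and that count was 9, 3 of them higher, without AcB55 array 2 and 2 without AcB55 array 4, 5 or 6. Of 8 polyamine genes 0 were called in limma over all arrays, 4 had an unadjusted p under 0.05, all higher in AcB61, and 1 was called without AcB55 array 1 or AcB61 array 6 or 8.

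The called genes were spread over the genome. The share called ran from 5.66% of 159 genes on chromosome 18 to 13.8% of 325 genes on chromosome 8. On the X chromosome it was 23 of 192 genes (11.98%). Over all 6269 genes with a place on a chromosome it was 10.4%. As recombinant congenic strains, AcB55 and AcB61 differ from each other within the C57BL/6 segments that only 1 of them carries, whose positions are not in the files. Runs of 3 or more neighbouring tested genes called in 1 direction were few, and all were higher in AcB61. The longest held 4 genes on chromosome 17, Fam234a, Atp6v0e, Crebrf and Bnip1, with differences of 0.28 to 0.52. Those of 3 genes were Dgka, Cd63 and Bloc1s1 on chromosome 10, with 0.35 to 0.51, and Ost4, Emilin1 and Preb on chromosome 5, with 0.33 to 0.43. No test was made of these runs, and how many would arise by chance was not estimated. Neighbours here are neighbours among the tested genes in the order of the RefSeq gene table.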

How the data were processed

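Total or poly(A) RNA of spleen was hybridised with A/J spleen RNA on 2-colour cDNA arrays, per the labels' protocols, which name image quantification, import into GeneSpring and a dye swap, and are cut short there. The deposited value of each probe is a log ratio of strain over A/J, normalized by the authors in a way not given in the sources used here. Its base is not stated, and the deposited values were taken as log2 ratios made by the authors. No scanner signals were used, so probe brightness and background are unknown and their part in the precision could not be judged. Of 15247 probes listed, 14612 had a value. Through the platform annotation 7849 named 1 gene, 356 several and 6407 none, and 7830 of the first kind matched the RefSeq gene table (GRCm38.p6). Probes of 1 gene were averaged per array. Features with values on at least 3 arrays of each strain were tested.

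A mean per strain was fitted to the 14 arrays with limma 3.58.1 (R 4.3.3, lmFit and eBayes), the contrast AcB61 minus AcB55 was tested on both sides, and p-values were adjusted over all 13045 features by Benjamini-Hochberg, with a threshold of 0.05. The exact permutation p is two-sided and unadjusted. Each strain was also set against 0. That test leaves out the spread of A/J. Fold is the log2 difference raised as a power of 2. The 97 genes examined in full were the 12 largest differences in each direction without overlap, up to 3 called genes of each list with 5 or more tested members, all members of smaller lists, and a few further names. Other genes were chosen as examples after their values were seen. The members and lists were chosen with earlier results of these data known. Arrays were numbered in the order of their records. Alternatives were other normalizations, filters, weights and variance models, single probes, and each array or set of arrays left out. The fit was tested on simulated data with known changes. The simulated noise was independent between arrays, unlike the AcB61 arrays, so that test cannot show that error rates hold for these data.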

Additional observations from a re-analysis of the deposited data

Results flagged for a closer look

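Among 194 sets of arrays checked, 12 held a single array far from the rest. How many sets chance alone would flag was not estimated. In AcB55, array 2 stood above the other arrays for Atp6v1c1 (-0.16, the others -0.78 to -0.57), Rpl38 (-0.15, the others -0.98 to -0.68) and Timp3 (0.27, the others -0.10 to 0.02). Array 6 stood below the others for Dnajb4 (0.14, the others 0.43 to 0.60) and Fzr1 (-0.34, the others -0.08 to 0.01), array 5 for Cat (0.60, the others 0.84 to 0.88) and array 1 for Ermap (-0.48, the others -0.22 to -0.15). In AcB61, array 3 stood above the others for Plin2 (0.25, the others -0.15 to 0.03) and Satb1 (0.22, the others -0.17 to 0.01), and array 1 for Col3a1 (0.60, the others 0.36 to 0.46). AcB61 array 4 stood below the others for Ap3d1 (-0.82, the others -0.45 to -0.22) and array 7 for Pold3 (-0.28, the others -0.05 to 0.12).

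In 6 genes every AcB55 array lay on 1 side of A/J and every AcB61 array on the other. Olfml3, Mtpn and Col3a1 were above A/J in AcB61, with differences of 1.18, 1.08 and 0.57. Odf2, Igtp and Pttg1 were above A/J in AcB55, with differences of -1.10, -0.81 and -0.75. The limma test of each difference is given with the gene above.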

How the results depend on the processing

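The counts of features and genes called stayed within 1.5 times 1601 and 655 when array medians were subtracted, arrays were scaled or quantile normalized, filters were changed, probes were tested singly or the variance model was robust. Array weights gave 2826 features and 1209 genes. Without the AcB55 arrays marked b the counts were 705 and 310, and leaving out single arrays gave 854 to 1694 features and 352 to 735 genes, lowest without AcB55 array 6. Alternatives chosen after the data were seen gave 3571 features and 1516 genes with the within-strain component as a covariate, 2545 and 1045 without AcB61 arrays 2, 6 and 8, and 2781 and 1204 without AcB61 arrays 3, 5 and 7. The rise with the covariate was largely built in, since the component came from the same deviations from the strain means. Leaving out arrays also leaves fewer samples. The cause of the other shifts was not tested. Of 97 genes examined in full, 82 were called and none of these changed direction. Among the 15 not called, H2-Eb1, Hba-a1, Lpl, Plin2 and Tfrc changed sign under some setting and were not called there. Of the 82 called, 58 kept the call when any single array was left out and 49 under every alternative planned, while 30 lost it without both AcB55 arrays marked b (among them Isg20, Usp8, Dbn1, Hadha, Cox6b1, Atpif1 and Mrpl27). Leaving out AcB61 arrays 2, 6 and 8 lost 11 of these calls, among them Txn1, Xbp1, Tmem14c, Arpc1b and Eif3i. Leaving out AcB61 arrays 3, 5 and 7 lost 8, among them Farsa, Glrx5, Paics, Calr and Timp3. No scaling moved the median of all features by more than 0.1. No paired analysis was possible because the labels give no number that is shared between the strains. Signal over background is unknown, so dim probes could not be told from bright ones.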
